A study of Mus musculus with 16 samples.

Results

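The genes described are 5 Usher syndrome genes, Adgrv1, Myo7a, Cdh23, Pcdh15 and Ush1c, chosen by name from the 32166 genes of the deposited expression table. All 5 were found there, and all 5 were among the 15202 genes that reached 1 CPM (counts scaled to a common library size) in at least 2 of the 16 libraries and were tested. Ush1c reached 1 CPM in 2 libraries, ESC day 28 and ESC day 35, so it entered the test only through libraries in which it was high. RNA with a poly(A) tail was sequenced from GFP-positive cells sorted out of mouse retinal organoids, which are retina-like tissues grown in suspension from pluripotent stem cells. Every library carried the Nrlp-GFP transgene, in which the promoter of the rod gene Nrl drives GFP, so the sort itself selected on activity of the Nrl promoter. The ESC libraries came from embryonic stem cell clones of Nrl-GFP blastocysts. The iPSC libraries came from clones made out of Nrl-GFP mouse embryonic fibroblasts with Dox-inducible lentiviral Oct3/4, Sox2, Klf4 and c-Myc. Both sources went through a modified SFEBq culture with low oxygen at the start, taurine and retinoic acid. ESC-derived cells were sampled at day 18 (3 libraries), day 21 (3) and days 25, 28 and 35 (1 each), and iPSC-derived cells at day 18 (2), day 21 (1), day 25 (2) and days 28 and 35 (1 each). Nothing in the labels states that the libraries of a group came from separate cultures or clones. The p-values therefore cover the spread among these libraries, which could be technical only.

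Usher syndrome is inherited hearing loss combined with degeneration of photoreceptors. In hair cells of the inner ear the type 1 proteins form the tip link, in which cadherin 23 joins protocadherin 15, and the complex behind it, with the motor myosin VIIa and the scaffold harmonin, the product of Ush1c. In photoreceptors the Usher proteins are known from the calyceal processes, from the periciliary membrane, where the very large adhesion receptor encoded by Adgrv1 works with whirlin, and from the synapse. Myosin VIIa is also known for its work in the retinal pigment epithelium. Only RNA was measured here, so where these proteins lie in the mouse organoid cells, or whether those cells form calyceal processes, was not tested.

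The genes lie on the mouse genome build GRCm38, in the GENCODE M21 annotation, as follows. Adgrv1 occupies chr13:81095068-81633154 on the minus strand, and its longest coding transcript has 19338 bases in 90 exons. Cdh23 occupies chr10:60302748-60696490 on the minus strand, with 11096 bases in 71 exons. Pcdh15 occupies chr10:73099342-74649737 on the plus strand, and its longest coding transcript, Pcdh15-234, has 9104 bases in 35 exons. Myo7a occupies chr7:98051060-98119524 on the minus strand, with 7506 bases in 49 exons. Ush1c occupies chr7:46195350-46238503 on the minus strand, with 3072 bases in 27 exons.

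Pcdh15 transcripts differ at their 3′ ends, which in the longer forms encode the cytoplasmic tail of the protein. The 29 coding transcripts of the gene end at 6 different stop codons. The last coding bases before and including the 3 stop codons used by the most transcripts are shown 5′ to 3′, with the stop codon in capitals. They are exon sequence on the plus strand of chromosome 10, numbered by the order of the stop codons along the gene, and were assembled from GRCm38 with GENCODE M21.
Pcdh15 tail 2, stop codon at chr10:74631952-74631954, 11 transcripts: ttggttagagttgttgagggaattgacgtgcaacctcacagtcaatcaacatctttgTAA
Pcdh15 tail 5, stop codon at chr10:74644216-74644218, 6 transcripts: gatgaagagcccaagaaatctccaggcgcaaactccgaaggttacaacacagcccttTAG
Pcdh15 tail 6, stop codon at chr10:74646070-74646072, 6 transcripts: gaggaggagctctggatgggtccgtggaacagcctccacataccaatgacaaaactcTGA
Within the 60 bases shown, all transcripts that share a stop codon had the same letters.

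The promoters of 2 of the genes are shown as well, because Pcdh15 differed between early and late days and Myo7a did not pass the test, while a window of each holds the same short motif. The sequences are from RefSeq on GRCm38.p6, 5′ to 3′ on the strand of the gene, cut so that they hold no annotated exon of the gene. Capitals mark matches to TGCTGA, a half-site of the rod factor NRL, or its reverse complement TCAGCA.
Pcdh15, chr10:73821617-73821866, plus strand: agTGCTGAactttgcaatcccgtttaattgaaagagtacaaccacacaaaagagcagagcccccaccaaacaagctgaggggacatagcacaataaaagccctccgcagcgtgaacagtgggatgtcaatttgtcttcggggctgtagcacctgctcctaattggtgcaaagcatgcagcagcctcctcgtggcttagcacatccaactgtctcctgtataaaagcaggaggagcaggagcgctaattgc
Myo7a, chr7:98119525-98119743, minus strand: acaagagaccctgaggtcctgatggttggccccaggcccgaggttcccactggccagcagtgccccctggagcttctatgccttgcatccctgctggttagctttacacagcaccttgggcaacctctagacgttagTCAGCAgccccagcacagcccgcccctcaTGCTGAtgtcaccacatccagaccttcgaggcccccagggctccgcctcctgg
The Pcdh15 match began 248 bases before the start at chr10:73821867. This Pcdh15 start lies within the gene span, which begins far upstream, at chr10:73099342, with the noncoding model Pcdh15-206. The Myo7a matches began 84 and 113 bases before the RefSeq start at chr7:98119493, the second on the opposite strand. That start lies inside the gene span given above, so both matches are nearer to the end of the printed sequence. Myo7a has a further promoter window in the table, at chr7:98109249-98109498, with no match to any motif searched. On either strand, TGCTGA was found in 16.1% of the 32851 promoter windows of the table. Over the windows of the 5 genes, 4 other motifs were searched on both strands. TAATCC, the core bound by CRX, occurs in 6.25% of all windows, the homeodomain palindrome TAATTA in 4.84% and AAGTCA, a half-site of NR2E3, in 13.1%, and none of these letters was in a window of the 5 genes. AGGTCA, a nuclear receptor half-site, occurs in 14.0% of all windows and was in that of Adgrv1, 237 bases before its RefSeq start at chr13:81633144. These are matches of letters and not binding sites.

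Effective library sizes, worked out from the deposited counts and CPM, ran from 4688769 to 26992269 estimated counts, so 1 count was worth 0.037 to 0.213 CPM. The 2 libraries ESC day 18 replicate 1 and iPSC day 18 replicate 1, called the low-Nrl pair here, stood apart. They held 17.7 and 15.99 CPM of Nrl, where the remaining libraries of day 18 ran from 136 to 881 CPM. Of the proliferation gene Mki67 they held 406 and 462 CPM, where those libraries ran from 66.4 to 172 CPM. In the pair, 12 rod markers summed to 247.2 and 249.3 CPM, and 12 retinal progenitor markers to 3587 and 3668 CPM. Over days 25 to 35 the rod sum was 5211 to 15078 CPM and the progenitor sum 158 to 1042 CPM. Y-linked genes of ESC day 18 replicate 1 and iPSC day 18 replicate 2 went against the other libraries of their source, so results are also given without that pair. In the sorted bulk samples, fewer cells of a type and less RNA per cell cannot be told apart.

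Pcdh15 was higher from day 25 on than at day 18, and it was the 1 gene of the 5 that passed the test. It encodes protocadherin 15, a cadherin of the tip link of hair cells. At day 18 the ESC libraries had 4.68, 13.4 and 4.96 CPM and the iPSC libraries 3.11 and 130 CPM. At day 21 the ESC libraries had 35.7, 18.2 and 64.8 CPM and the iPSC library 16.4 CPM. So day 18 held 4 low libraries and 1 far above them, and day 21 lay between. At day 25 the values were 217 CPM (ESC) and 232 and 481 CPM (iPSC), at day 28 they were 296 and 255 CPM, and at day 35 they were 119 and 316 CPM, ESC before iPSC. Of the 7 libraries from day 25 on, 6 were above every day 18 library, and all 7 were above every day 21 library. The exception was ESC day 35 at 119 CPM, below iPSC day 18 replicate 2. Mean CPM was 31.3 ± 55.5 (SD, n = 5) at day 18 and 274 ± 111 (SD, n = 7) over days 25 to 35, a ratio of 8.74. In rising order the day means were 31.3 (day 18), 33.8 (day 21), 218 (day 35), 276 (day 28) and 310 CPM (day 25). Only days 21 and 35 did not overlap among neighbours in that order, so the means stepped up between days 21 and 25 and did not go on rising.

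**Figure D1:**
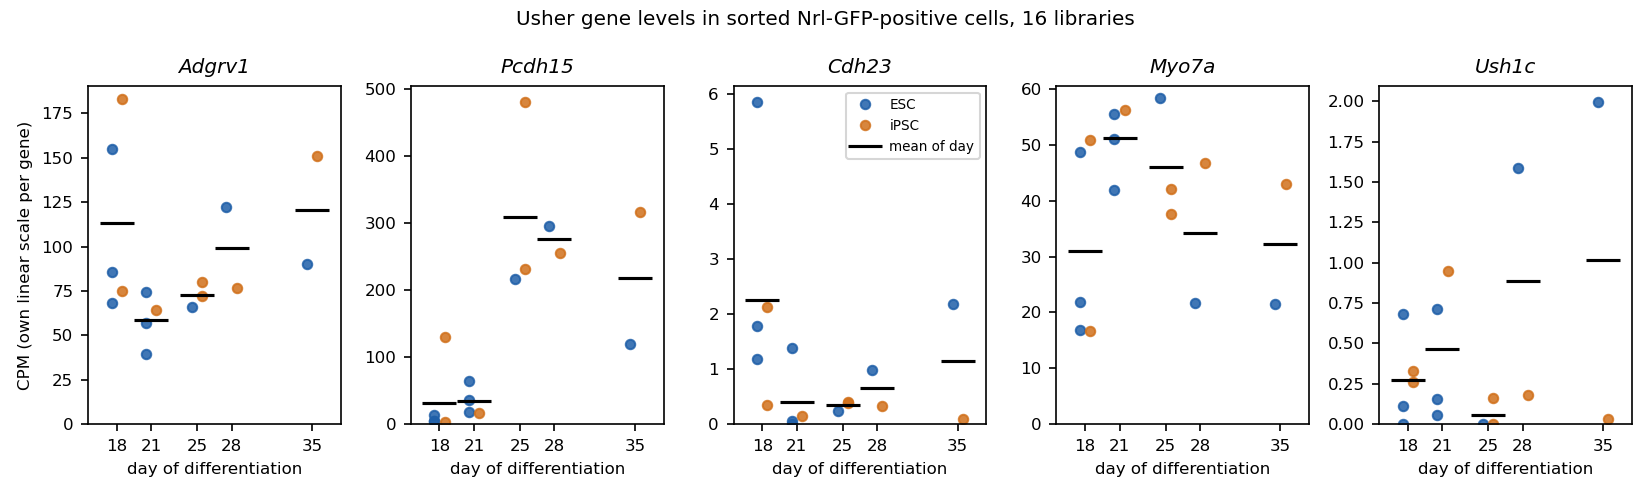
CPM of each of the 5 genes (y axis, a linear scale of its own per gene) against the day of differentiation (x axis) in 16 libraries; blue points are ESC-derived and orange points iPSC-derived, and black bars are the mean of all libraries of a day. Pcdh15 sits between 119 and 481 CPM from day 25 on, while Cdh23 and Ush1c stay under 6 CPM throughout.

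On the log2(CPM + 1) scale, with the source in the model, Pcdh15 was higher over days 25, 28 and 35 than at day 18 by 4.27 (SE 0.72, 95% interval 2.72 to 5.82; limma adjusted p = 0.00451). In that comparison 17.1% of the 15202 genes passed an adjusted p of 0.05, 9.47% higher and 7.64% lower, and 1 of the 5 Usher genes did. The 12 rod markers all rose and 8 of the 12 progenitor markers fell in the same comparison, and the part of this in the Pcdh15 difference was not tested. The low-Nrl pair matters for the call: with it left out the Pcdh15 difference was 3.28, its adjusted p was 0.0661, and 92 genes were called in all. Within the ESC libraries alone the difference was 4.65 (adjusted p = 0.152) and within the iPSC libraries alone 3.69 (adjusted p = 0.109). When the CPM of each library were rescaled to the same sum, 1228 genes were higher and 1755 lower, where the deposited scale gave 1440 and 1162, and Pcdh15 was higher by 4.14.

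Day 35 alone against day 18 gave a Pcdh15 difference of 3.95 (SE 1.01, limma adjusted p = 0.0341), with 7.53% of all genes called, 4.54% higher and 2.99% lower. This call changed with the libraries and the tool. The difference was 2.97 without the low-Nrl pair (adjusted p = 0.143), 3.00 in edgeR (adjusted p = 0.102) and 3.95 with no filter on low values (adjusted p = 0.0677). It was also lost when ESC day 18 replicate 1 or 3, ESC day 35, iPSC day 18 replicate 1 or iPSC day 35 was left out, with differences from 3.36 to 4.44 and adjusted p from 0.0627 to 0.216. The linear slope was 0.28 log2 units per day (SE 0.069, limma adjusted p = 0.0167), with 12.1% of all genes called, 6.81% higher and 5.29% lower. The slope was 0.21 without the low-Nrl pair (adjusted p = 0.0641) and 0.27 in edgeR (adjusted p = 0.055). It is the slope of a straight line, while the day means did not rise steadily. Rescaling gave 618 genes higher and 608 lower at day 35, against 690 and 454, and 924 higher and 1064 lower for the slope, against 1036 and 804. Day 21 against day 18 gave 1.39 (95% interval -0.37 to 3.15, adjusted p = 0.363). There 0% of all genes passed in limma or edgeR and 108 in DESeq2, with 2854 genes at an unadjusted p under 0.05 in limma.

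**Figure D2:**
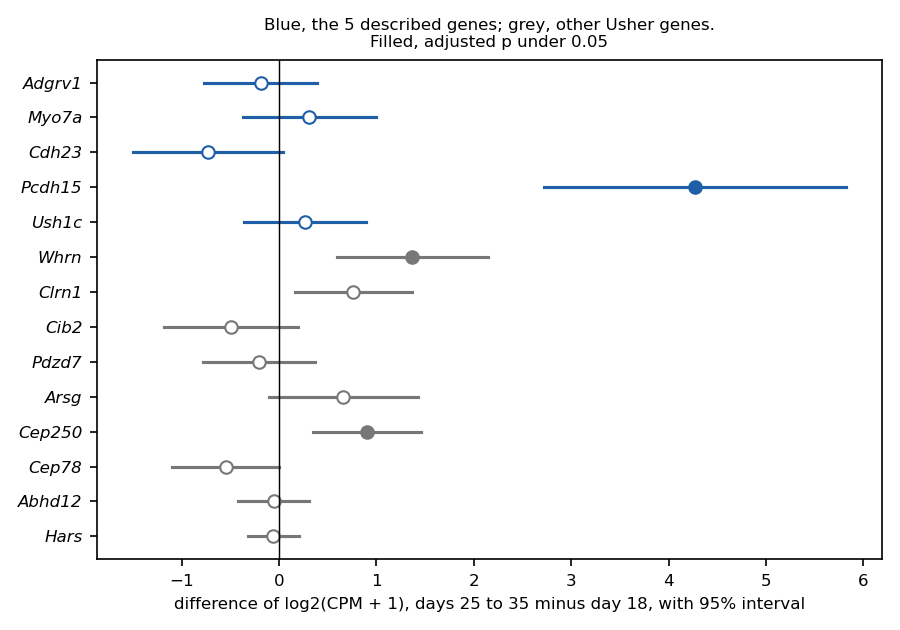
Difference of log2(CPM + 1) between days 25, 28 and 35 and day 18 (x axis) with its 95% interval, for the 5 genes (blue) and the 9 other Usher genes tested (grey); filled points have an adjusted p under 0.05. Pcdh15 is at 4.27 and the other 4 blue intervals include 0.

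The coding transcripts of Pcdh15 ended mainly at stop codon 6, at the later days and at day 21. Transcripts ending there held 78.3% of the coding TPM (transcript abundance scaled for length and library size) over all libraries, those ending at stop codon 2 held 13.6%, at stop codon 1 3.98% and at stop codon 5 3.32%, and the remaining 2 stop codons less than 1% each. From day 25 on the share of stop codon 6 ran from 71.1% (iPSC day 25 replicate 2) to 86.2% (iPSC day 35), and that of stop codon 2 from 7.17% to 18.3%. At day 21 stop codon 6 had 76.7% to 84.0%. At day 18 its share ran from 57.8% to 100%, but the ESC libraries of that day held 37.0 to 66.0 estimated Pcdh15 counts in all, too few for the shares of single tails. The transcript that carries most of it, Pcdh15-234 at chr10:73821883-74649737, ran from 0.745 to 77.7 TPM, and was above 0 in all 16 libraries. It held 69.9% of the gene's estimated counts, and 31 of the 41 annotated transcripts were above 0 in at least 1 library. A noncoding model with a retained intron, Pcdh15-240, held 15.9% of the gene's TPM. Shares of transcripts that overlap are estimates by kallisto, and counts that fit several models were split between them.

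**Figure D3:**
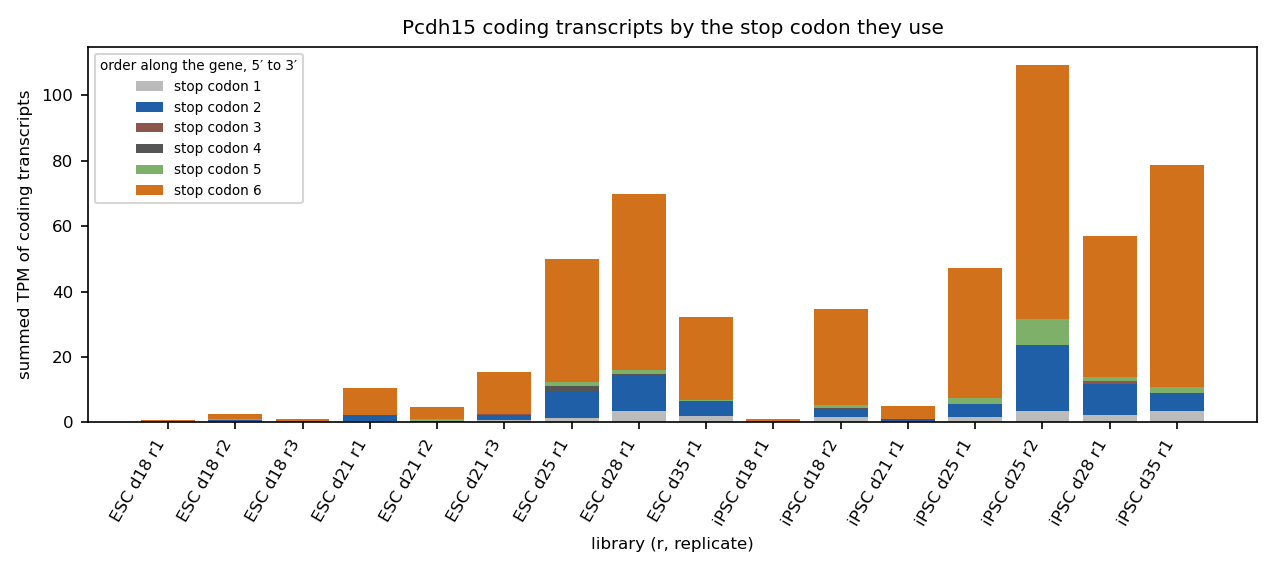
Summed TPM of the coding Pcdh15 transcripts in each library (x axis), stacked by the stop codon they use, numbered along the gene from 5′ to 3′. Stop codon 6 (orange) makes up 71.1% to 86.2% of each bar from day 25 on, and the bars of the ESC day 18 libraries are close to 0.

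Pcdh15 levels went with those of Nrl from library to library, though not in a fixed ratio. Across the 16 libraries Pearson's r between the log2(CPM + 1) values of Pcdh15 and Nrl was 0.88, and it was 0.88 over the 14 without the low-Nrl pair, a description over libraries that share days and the sort on Nrl promoter activity. Leaving out the low-Nrl pair, Pcdh15 per 100 CPM of Nrl was 3.39 to 14.8 (median 4.45) in the 7 libraries of days 18 and 21. It was 13.3 to 29.5 (median 21.5) in the 7 libraries of days 25 to 35. The groups overlapped through iPSC day 18 replicate 2, at 14.8. At nearly equal Nrl, ESC day 21 replicate 3 (1915 CPM of Nrl) had 64.8 CPM of Pcdh15, and iPSC day 28 (1921 CPM of Nrl) had 255 CPM. These libraries differ in source as well as day, and the former had the lowest ratio of all, 3.39. Within iPSC, day 18 replicate 2 (881 CPM of Nrl) had 130 CPM and day 25 replicate 1 (932 CPM of Nrl) had 232 CPM. In the low-Nrl pair the ratio was 26.4 and 19.5, from Pcdh15 levels of 4.68 and 3.11 CPM. Over these libraries the 4 genes whose log2 profile was most like that of Pcdh15 were Cngb1 (r = 0.96), a subunit of the rod cGMP-gated channel, Fam149a (0.95), the glutamate transporter gene Slc1a1 (0.95) and Ubxn11 (0.94).

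**Figure D4:**
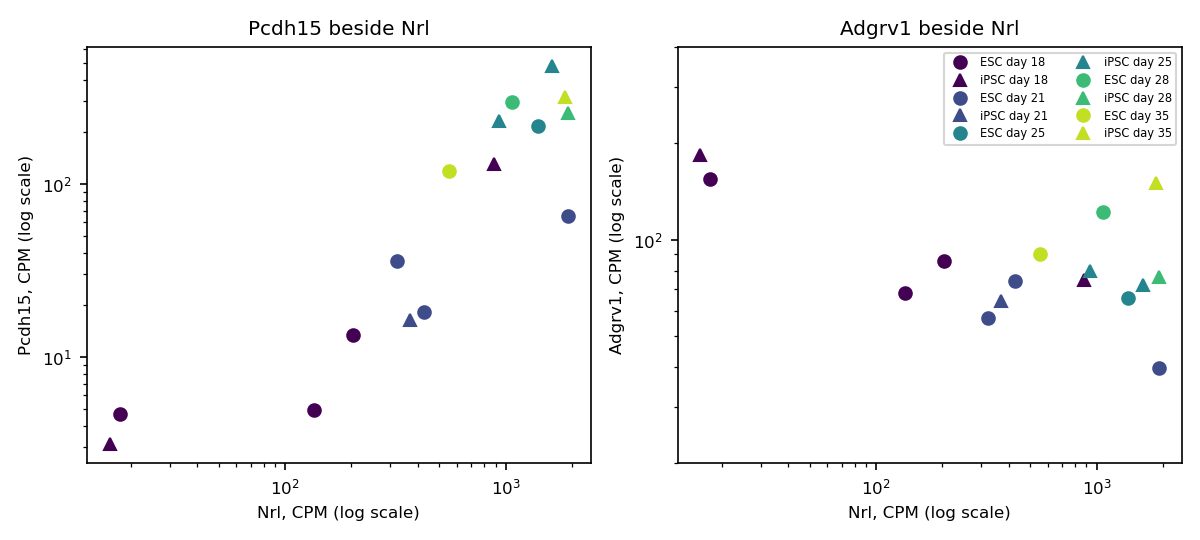
CPM of Pcdh15 (left) and Adgrv1 (right) against CPM of Nrl, both axes on log scales, 1 point per library, coloured by day, with circles for ESC and triangles for iPSC. At 1915 and 1921 CPM of Nrl the ESC day 21 library has 64.8 CPM of Pcdh15 and the iPSC day 28 library 255 CPM. At 881 and 932 CPM of Nrl the iPSC libraries of days 18 and 25 have 130 and 232 CPM. The low-Nrl pair at the left has the highest Adgrv1, 155 and 183 CPM.

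Cdh23, whose product is the partner of protocadherin 15 in the tip link, was near the detection limit in most libraries. At day 18 it was at 5.85, 1.79 and 1.19 CPM (ESC) and 2.13 and 0.345 CPM (iPSC). At day 21 it was at 1.39, 0 and 0.0569 CPM (ESC) and 0.139 CPM (iPSC). The highest value, in ESC day 18 replicate 1, stood for 94.4 estimated counts, while 3 of the 4 day 21 libraries held fewer than 3. From day 25 on the ESC libraries had 0.236, 0.976 and 2.18 CPM in the order of days, and the iPSC libraries had 0.403 and 0.381 CPM at day 25, 0.329 CPM at day 28 and 0.0935 CPM at day 35. Day 18 and later libraries overlapped, with 3 of the 7 libraries from day 25 on below all of day 18. The difference between days 25 to 35 and day 18 was -0.73 (95% interval -1.50 to 0.04, adjusted p = 0.166) and that between day 21 and day 18 -1.20 (adjusted p = 0.217), so neither passed the test. Both libraries of the low-Nrl pair were among the 3 highest for Cdh23, with ESC day 35. The latter also had 2072 CPM of Ttr, a gene of pigment epithelium and choroid plexus, 222 CPM of the Müller glia gene Aqp4 and 78.8 CPM of the bipolar cell gene Grm6. Its 11 pigment epithelium markers summed to 2192 CPM, most of it Ttr, against 44.7 to 289 CPM in other libraries from day 25 on. Among the earlier libraries ESC day 18 replicate 2 reached 1574 CPM. The defining marker Rpe65 was at 0.0454 CPM in ESC day 35 and at 0 in the other 15 libraries. The 9 Müller glia markers of ESC day 35 summed to 1836 CPM, against 267 to 876 CPM in other libraries from day 25 on. In the low-Nrl pair they summed to 1259 CPM (ESC) and 1243 CPM (iPSC). The part of these markers in the Cdh23 level was not tested. Genes with the most similar profile were Sipa1l1 (r = 0.91), Nrp1 (0.91), Thbs3 (0.91) and Adamts10 (0.90), over 16 libraries.

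Adgrv1, the adhesion receptor of the periciliary complex, was detected well in every library and did not pass the test in any comparison. At day 18 it had 155, 85.9 and 67.9 CPM (ESC) and 183 and 74.8 CPM (iPSC), the 2 high values being those of the low-Nrl pair. At day 21 it had 56.9, 74.4 and 39.7 CPM (ESC) and 64.5 CPM (iPSC). Days 18 and 21 overlapped, and the low-Nrl pair lay above all day 21 libraries. At day 25 it had 65.7 CPM (ESC) and 79.8 and 72.3 CPM (iPSC), at day 28 122 and 76.6 CPM and at day 35 90.0 and 151 CPM, ESC before iPSC. In rising order the day means were 58.9 (day 21), 72.6 (day 25), 99.4 (day 28), 113 (day 18) and 120 CPM (day 35), and the libraries of each day overlapped those of the next in that order. The difference between day 21 and day 18 was -0.82 (95% interval -1.48 to -0.17, unadjusted p = 0.0175, limma adjusted p = 0.221). Between days 25 to 35 and day 18 it was -0.19 (95% interval -0.77 to 0.39, adjusted p = 0.651). That sign rested on the low-Nrl pair, since without it the difference was 0.27 (adjusted p = 0.599). The profile was most like those of Srsf3, a splicing factor gene (r = 0.85), Cdo1 (0.85), Eif2ak1 (0.84) and Vps16 (0.84).

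Myo7a, the motor of the complex, tended to be low in the libraries where Adgrv1 and Cdh23 were high, and passed the test in no comparison. At day 18 it had 16.8, 21.9 and 48.7 CPM (ESC) and 16.7 and 50.9 CPM (iPSC). At day 21 it had 41.9, 51.0 and 55.5 CPM (ESC) and 56.2 CPM (iPSC). The lowest values again belonged to the low-Nrl pair, and 3 of the 4 day 21 libraries were above all of day 18. At day 25 it had 58.5 CPM (ESC) and 42.1 and 37.6 CPM (iPSC), at day 28 21.7 and 46.8 CPM and at day 35 21.4 and 43.0 CPM, ESC before iPSC. So at days 28 and 35 the ESC library had about the level of a low day 18 library and the iPSC library did not. The difference between day 21 and day 18 was 0.91 (95% interval 0.13 to 1.68, unadjusted p = 0.0251, limma adjusted p = 0.229), and between days 25 to 35 and day 18 0.31 (95% interval -0.37 to 0.99, adjusted p = 0.516). The latter was -0.19 without the low-Nrl pair. Across the 16 libraries Pearson's r of the log2(CPM + 1) values of Myo7a was -0.74 with Adgrv1 and -0.84 with Cdh23, whose counts are few. Over the 14 libraries without the low-Nrl pair these were -0.53 and -0.76. With Nrl r was 0.63 over all 16 and 0.19 over the 14, so that relation rested on the pair. The genes most like it were Prickle4 (r = 0.92), Acadvl (0.92), Hist2h2be (0.92) and Cnppd1 (0.90).

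Ush1c, which encodes the scaffold harmonin, was at the limit of detection. The transcript table held 0 to 48.0 estimated counts of it per library. ESC day 18 replicate 2, ESC day 25 and iPSC day 25 replicate 2 were at 0, which allows a level of up to 0.457, 0.184 and 0.310 CPM (3 estimated counts, counting error only). The 2 highest libraries were ESC day 35 at 2.00 CPM (48.0 estimated counts) and ESC day 28 at 1.59 CPM (12.0 estimated counts), and the other 14 lay between 0 and 0.948 CPM. The iPSC libraries of the same days had 0.0328 and 0.181 CPM, with 1.00 estimated count each. These Ush1c counts are from kallisto, while those given for Cdh23 are CPM times the effective library size. By the latter measure ESC day 35 held 36.6 counts of Ush1c. The test of days 25 to 35 against day 18 gave 0.27 (adjusted p = 0.540). The slope with day was lower in iPSC than in ESC by 0.11 log2 units per day (unadjusted p = 0.01, limma adjusted p = 0.499), which did not pass. Ush1c reached the level for testing only through ESC day 28 and ESC day 35. These libraries also enter both comparisons, so the p-values carry no weight for a difference. ESC day 35 is also the library with 222 CPM of Aqp4 and 78.8 CPM of Grm6, and the part of other cell types in its Ush1c level was not tested. The most similar profile was that of Wdr1 (r = 0.75), lower than for any of the other 4 genes.

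Divided by the length of the longest coding transcript, mean levels over the 16 libraries were 15.2 CPM per kb for Pcdh15, 5.25 for Myo7a, 4.72 for Adgrv1, 0.147 for Ush1c and 0.0985 for Cdh23. That length need not be that of the RNA present. Pcdh15-234 held 44.0% of the gene's TPM, and Ush1c-201 held 10.5% of that of Ush1c, where the shorter Ush1c-202 held 50.7%. For Myo7a, Adgrv1 and Cdh23 no transcript levels were available, so the ranking of genes on this scale is rough. The single libraries ran from 0.342 to 52.8 CPM per kb for Pcdh15, from 2.23 to 7.79 for Myo7a and from 2.05 to 9.48 for Adgrv1. So these 3 overlapped across libraries, and Ush1c (0 to 0.65) and Cdh23 (0 to 0.527) overlapped the lowest Pcdh15 libraries but neither Myo7a nor Adgrv1. On this per-length scale the tip-link cadherins Cdh23 and Pcdh15 were at about the same level in ESC day 18 replicate 1, 0.527 and 0.514 CPM per kb. In iPSC day 35 they were at 0.00843 and 34.7 CPM per kb, the former from 1.51 estimated counts.

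No Usher gene passed the test between the sources, in which 0% of the 15202 genes passed in limma. The count was also 0 in edgeR and in DESeq2, and 840 genes had an unadjusted p under 0.05 in limma. For Pcdh15, ESC libraries ran from 4.68 to 296 CPM (median 35.7, n = 9) and iPSC libraries from 3.11 to 481 CPM (median 232, n = 7), so the sources overlapped. With day in the model the difference, iPSC minus ESC, was 0.58 (95% interval -0.79 to 1.95, adjusted p = 0.806). Without iPSC day 18 replicate 2 it was -0.15, and without the Y-linked pair -0.18. For the other genes the difference was 0.18 (Adgrv1, 95% interval -0.33 to 0.70), 0.27 (Myo7a, -0.33 to 0.88), -0.57 (Cdh23, -1.25 to 0.11) and -0.20 (Ush1c, -0.75 to 0.35). The slope with day also passed for 0% of the genes when compared between sources in limma, and in DESeq2 43 genes passed, with 1233 genes at an unadjusted p under 0.05 in limma. For Pcdh15 that difference in slope was -0.01 log2 units per day (95% interval -0.32 to 0.29).

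Of 10 further genes linked to Usher syndrome or to its proteins, 9 were tested and 2 rose between day 18 and days 25 to 35, beside 9.47% of all genes. The median difference of the 9 was -0.05 beside 0.01 over all genes. Whrn, which encodes the scaffold whirlin, rose by 1.37 (limma adjusted p = 0.0238) from 22.4 to 66.6 CPM at day 18 to 50.5 to 193 CPM, and 6 of 7 late libraries were above all of day 18. The centrosomal gene Cep250 rose by 0.90 (adjusted p = 0.0321) from 60.3 to 92.5 CPM to 75.7 to 271 CPM. So of Whrn and Adgrv1, whose products share the periciliary membrane, Whrn rose, and the difference of Adgrv1, -0.19, did not pass. Clrn1 passed in the slope only (0.07 log2 units per day, adjusted p = 0.0419), and reached its highest level, 8.89 CPM, in ESC day 35. Of the list, Cib2, Pdzd7, Arsg, Cep78, Abhd12 and Hars passed in no comparison, and Ush1g, the gene of the scaffold SANS, was at 0 to 0.63 CPM and not tested. At day 35 against day 18 none of the 9 passed in limma, and 2 had an unadjusted p under 0.05 (Clrn1 and Arsg). In the comparison of days 25 to 35 with day 18, 0 of the 9 passed without the low-Nrl pair, where 92 of 15111 genes passed, and 0 without the Y-linked pair, where 1325 of 15162 did. The call of Clrn1 in the slope was also lost without either pair.

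Among 11 genes of proteins that work beside the Usher complexes in photoreceptors, 5 rose over days 25 to 35, beside 9.47% of all genes. The median difference of the 11 was 0.84, beside 0.01 over all genes. They were Prom1 and Cdhr1, genes of the disc membrane base, with 2.24 (SE 0.38) and 2.25 (SE 0.55), the ciliary genes Rpgr with 0.84 and Rpgrip1 with 3.18, and the scaffold gene Magi2 with 0.93 (limma adjusted p from 0.00502 to 0.0352). Prom1 and Rpgrip1 also passed at day 35, and in the slope with day Eps8, Prom1, Rpgr and Rpgrip1 passed. The actin-bundling gene Espn, with 0.14, and Cask, Mpp1 and Myo15 did not pass. With the low-Nrl pair left out 0 of the 11 passed, where 92 of 15111 genes did, and their median difference was 0.64. With the Y-linked pair left out the same 5 passed. Of 9 genes of the hair cell transduction channel and of the intestinal brush border, 2 reached the level for testing, Tmie (0.01) and Lhfpl5 (-0.23), and neither passed.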

How the data were processed

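The 5 genes and the gene lists beside them were chosen with earlier results of these data known. Per the series design text and the submitters' processing notes, the authors trimmed reads with Trimmomatic 0.36, quantified them with kallisto 0.42.5 on the Ensembl release 84 transcripts of GRCm38.p4, and summarised them to genes with tximport (lengthScaledTPM) and to CPM with edgeR. The deposited gene values are a score equal to the square of log2(CPM + 1), minus 1, and CPM was recovered from them. This was found by comparison with the deposited TPM summed by gene (a constant ratio, within 0.001 log2, for 97.7% of 8688 genes). The deposited transcript tables, with estimated counts and TPM from kallisto by the authors, stop at 65535 transcripts. They hold all of Pcdh15 and 8 of the 9 Ush1c transcripts but none of Adgrv1, Myo7a or Cdh23, whose levels come from the gene table only. Sums per gene are complete for 10840 genes.

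CPM were tested as log2(CPM + 1), pseudocount 1, with limma 3.58.1 (trend, R 4.3.3) over all 16 libraries, with source and day as factors or day as a number, and Benjamini-Hochberg adjustment over 15202 genes. Fold changes on this scale understate those of low genes. The alternatives were edgeR 4.0.16 and DESeq2 1.42.0 on estimated counts summed by gene and then rounded (9316 genes), other pseudocounts and filters, rescaling, a replicate block and left-out libraries. The limma script was tested on simulated data. The 5 genes are named in every comparison, called genes of the lists by adjusted p, and for each gene the 4 of highest Pearson r among 10986 genes with a mean of at least 5 CPM. Groups come from the labels, and GEO's labels and file headers map every column. The list of further Usher genes is given without 1 gene that is not reported here, which leaves 10.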

Additional observations from a re-analysis of the deposited data

Results flagged for a closer look

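Pcdh15 in iPSC day 18 replicate 2, at 130 CPM, lay far above the other 4 day 18 libraries: its gap to the next, 13.4 CPM, was 0.919 of the range of the day, where 0.71 is the 95% limit for 5 values. The same library had 881 CPM of Nrl, the most of its day, and is 1 of the 2 whose Y-linked genes went against their source. Cdh23 in ESC day 21 replicate 1, at 1.39 CPM or 15.2 estimated counts, lay above the other 3 libraries of the day, with a gap of 0.900 of the range, past the 95% limit for 4 values. That library had 1152 CPM over the 12 progenitor markers, the most of its day. The part of these in either level was not tested. For normally spread values chance passes such a limit in about 1 of 20 groups, and 10 groups (5 genes at days 18 and 21) were looked at. The gaps were taken on linear CPM. They were not worked out on the log2(CPM + 1) scale of the tests, so these flags hold for linear CPM only.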

How the results depend on the processing

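The Pcdh15 call over days 25 to 35 held when any 1 of the 16 libraries was left out (3.66 to 5.27), under rescaling, other pseudocounts and filters, edgeR (3.43, adjusted p = 0.0297) and DESeq2. It was lost without the low-Nrl pair, where 0 of the 5 genes and 92 genes in all passed. Genes called numbered 1663 with no filter, 1567 in edgeR and 1325 without the Y-linked pair, and 454 (without iPSC day 18 replicate 1) to 3847 (without ESC day 35) with 1 library left out. At day 35 the Usher genes called were 0 with no filter, in edgeR (2 tested, Pcdh15 and Ush1c) and without the low-Nrl pair, and 0 to 1 with 1 library left out; genes called were 735 with no filter, 643 in edgeR, 150 without the low-Nrl pair, 631 without the Y-linked pair and 290 to 1809 with 1 library left out. For the slope, 0 of the 2 Usher genes tested in edgeR passed, and 0 of the 5 without the low-Nrl pair, where 795 genes passed; the Y-linked pair left out gave 1047 and single libraries 555 to 3312. Day 21 gave 1 gene with no filter, 108 in DESeq2 and 0 to 249 with 1 library left out. The source gave 1 gene with a pseudocount of 0.1 and 3 without the Y-linked pair, and the difference in slope 43 in DESeq2.

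The labels do not say whether equal numbers in the ESC day 18 and day 21 libraries mean a shared batch. Correlations of same-numbered deviations from the group means were 0.31, 0.06 and 0.25, and those of unlike numbers ran from -0.40 to 0.12. Numbers 1 and 3 correlated best with their own number, and number 2 did not. Whether same-numbered libraries shared a batch was not tested. With a replicate block, genes called were 4703 (days 25 to 35), 2943 (day 35) and 3051 (slope). With it 2 of the 5 Usher genes passed over days 25 to 35, Pcdh15 (4.94) and Cdh23 (-1.12, adjusted p = 0.0243), and Adgrv1 turned to -0.17 at day 35 and -0.0064 in slope and Myo7a to 0.0175 in slope.

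The sign of differences that passed no test turned as follows, and the cause was not tested. Without the low-Nrl pair, Adgrv1 was 0.27 and Myo7a -0.19 over days 25 to 35, Myo7a -0.37 at day 35 and the Cdh23 slope 0.0131. Rescaled, Adgrv1 was -0.0152 and Myo7a -0.0327 at day 35, and the Adgrv1 difference in slope -0.0027. Within ESC, Adgrv1 was -0.10 and Myo7a -0.28 at day 35; within iPSC, Pcdh15 was -0.42 at day 21 and Ush1c -0.24 over days 25 to 35 and -0.32 at day 35. Ush1c was 0.21 between sources in DESeq2. Without the Y-linked pair Pcdh15 was -0.18 between sources, and the differences in slope were 0.11 (Pcdh15) and -0.0301 (Adgrv1). With 1 library left out the ranges were -0.14 to 0.31 for Ush1c at day 21, -0.38 to 0.0364 for Adgrv1 over days 25 to 35, and, at day 35, -0.28 to 0.53 for Myo7a, -0.17 to 0.47 for Adgrv1 and -1.12 to 0.0152 for Cdh23. They were -0.0231 to 0.0243 for the Myo7a slope, -0.0048 to 0.0327 for the Adgrv1 slope, -0.15 to 1.03 for Pcdh15 and -0.41 to 0.0143 for Ush1c between sources, and, for the difference in slope, -0.0737 to 0.048 for Adgrv1, -0.29 to 0.17 for Pcdh15 and -0.0769 to 0.0641 for Cdh23. Ush1c was not tested in 2 of these, without ESC day 28 or ESC day 35, since it then missed the filter. Depth limits Ush1c and Cdh23, at under 3 estimated counts in several libraries.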
